A study of Rattus norvegicus with 9 samples.

Results

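The genes described here drive cell division: they license and copy the DNA, run the switch from G1 to S phase, hold it back, or carry the cell through mitosis. They were chosen by symbol from a list of 46, and a listed gene was used where its Gene ID was in the deposited table and its mean level over the groups was at least 1 CPM (the usual depth-scaled count, here with library totals scaled by TMM). This left 45 of the 17465 genes in the table, and all 45 also passed the filter on low counts that preceded testing. Cenpe was not analysed here. By role they were 12 genes of origin licensing and replication, 10 regulators of G1 and S phase, 4 inhibitors and stress genes, and 19 genes of G2 and mitosis.

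Transcripts were measured in 9 libraries of homogenised, frozen fetal lung from Sprague-Dawley rats, made from total RNA that was extracted on 1 day and depleted of ribosomal RNA. There were 3 control lungs without treatment, 3 hypoplastic lungs without treatment and 3 hypoplastic lungs given AFSC-EV, vesicles released by stem cells from amniotic fluid. Per the title of the series, oligohydramnios, a lack of amniotic fluid, had caused the hypoplasia, an underdevelopment of the lung. The labels give no fetal age, litter, vesicle dose or time of treatment. Nothing says that the lungs of a group came from separate litters, so p-values measure only the spread between these samples, which may be technical.

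Library totals ran from 56922779 to 88243188 estimated counts, and no pair of libraries agreed within sampling noise. Lung markers were present in every library, among them the mesenchymal factor Tbx4 at 47.5 to 113 CPM. The 8 epithelial markers summed to 3540 to 5660 CPM in control, 2690 to 3180 CPM in hypoplastic and 3270 to 3960 CPM in treated lungs, so that hypoplastic lungs lay below both other groups without overlap. The surfactant gene Sftpc was at 645 to 951, 292 to 496 and 567 to 757 CPM in the same order. Only Sftpc and Nkx2-1 separated in this way, and the other epithelial markers overlapped with control or treated lungs. Sftpb was at 763 to 816 CPM in hypoplastic lungs and 765 CPM in treated library 3. Epcam was at 514 CPM in hypoplastic library 1 and 501 CPM in control library 1. Against control lungs alone, Sftpb and Cdh1 also lay lower in hypoplastic lungs without overlap. Their highest hypoplastic values were 816 and 609 CPM, and their lowest control values 908 and 670 CPM. Sftpa1, Epcam, Ager and Hopx overlapped with control. Of all genes tested 9.05% lay lower in hypoplastic than in control lungs without overlap. The 8 lymphocyte and thymus markers summed to 3.26 to 5.49 CPM, most of it Rag1 and Lck, with Cd3e and Cd8b at or below 0.0790 CPM. The 5 liver markers summed to 6.08 CPM in control library 2, of which Apoa1 was 5.65 CPM, and to at most 0.229 CPM elsewhere. Heart muscle markers summed to 256 and 122 CPM in hypoplastic libraries 1 and 2 and to 4.07 to 19.4 CPM in the other 7 libraries. The 8 neutrophil markers summed to 11.1 to 16.3 CPM in control, 58.9 to 101 CPM in hypoplastic and 21.4 to 89.5 CPM in treated lungs. The control lungs held 2 males and 1 female by Xist and Y-linked genes, and each other group 1 male and 2 females.

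In a dividing cell, D-type cyclins with Cdk4 and Cdk6 phosphorylate the retinoblastoma protein Rb1, which then releases E2F factors that switch on replication genes. The MCM helicase is loaded on origins by Cdc6 and Cdt1 and fires at the start of S phase, and the late genes of G2 and mitosis follow under the control of Foxm1 and the DREAM and MuvB complexes. In the fetal lung, division of epithelial tips and of the surrounding mesenchyme builds the airway tree, and cell cycle genes are a common readout of lung growth.

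Sequences before the start sites are shown because they carry the letters by which these genes are known to be switched on in turn. Promoters of 300 bases, from 250 before to 50 after the annotated start, were taken from RefSeq on build GRCr8, and 32 of the 45 genes matched by Gene ID. They were searched on both strands for the CCAAT box (CCAAT), for the cell cycle genes homology region or CHR (TTTGAA or TTCGAA), and for an E2F site (TTTCCCGC, TTTCGCGC, TTTGCCGC or TTTGGCGC). An E2F site was found in 7 of 9 promoters of licensing and replication genes (77.8%), in 1 of 15 of G2 and mitosis genes (6.67%) and in 2.14% of all 33469 promoters of that length. A CHR was found in 11 of 15 promoters of G2 and mitosis genes (73.3%), in 3 of 9 of replication genes (33.3%) and in 19.7% of all promoters. The CCAAT box was in 12 of the 15 and in 6 of the 9, against 37.5% of all promoters. CHR and CCAAT box stood together in 10 of the 15 G2 and mitosis promoters (66.7%) and in 7.95% of all promoters. Neither the E2F letters nor the CHR occurred in the promoters of the 3 matched inhibitors, Cdkn1a, Cdkn1b and Cdkn2c. With 3 promoters such an absence says little. The 5 matched regulators of G1 and S phase also held no CHR, and 1 of them held an E2F site. A match is a description of the letters and not evidence that a factor binds there.

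For replication the last 150 bases before the start are printed for Mcm2 and Mcm5, both helicase subunits, and for Tyms, thymidylate synthase, with matched letters of either strand in capitals. In Mcm2 the capitals are an E2F site read on both strands, in Mcm5 they are 3 CCAAT boxes and an E2F site that ends at the start, and in Tyms a single E2F site.
Mcm2: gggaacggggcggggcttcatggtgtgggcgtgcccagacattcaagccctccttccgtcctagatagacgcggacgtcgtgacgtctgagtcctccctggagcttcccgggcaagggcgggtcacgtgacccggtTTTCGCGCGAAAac
Mcm5: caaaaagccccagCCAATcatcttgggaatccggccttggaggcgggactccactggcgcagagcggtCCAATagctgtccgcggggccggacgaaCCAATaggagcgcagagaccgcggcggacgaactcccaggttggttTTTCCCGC
Tyms: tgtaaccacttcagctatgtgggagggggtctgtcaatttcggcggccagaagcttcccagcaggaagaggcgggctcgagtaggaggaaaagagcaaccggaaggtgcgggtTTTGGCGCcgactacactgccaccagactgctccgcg

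For G2 and mitosis the same stretch is printed for Mki67, the Ki-67 antigen of dividing cells, Ccnb2, a B-type cyclin, Cdk1, the mitotic kinase, and Cdc20, an activator of the anaphase-promoting complex. Each holds a CHR near CCAAT boxes, which read ATTGG on the opposite strand. In Mki67 a CHR and a reversed CCAAT box overlap in one run of capitals, and Cdk1 holds an E2F site besides.
Mki67: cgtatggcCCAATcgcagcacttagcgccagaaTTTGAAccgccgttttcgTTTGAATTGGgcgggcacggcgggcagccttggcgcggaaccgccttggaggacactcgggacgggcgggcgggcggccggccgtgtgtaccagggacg
Ccnb2: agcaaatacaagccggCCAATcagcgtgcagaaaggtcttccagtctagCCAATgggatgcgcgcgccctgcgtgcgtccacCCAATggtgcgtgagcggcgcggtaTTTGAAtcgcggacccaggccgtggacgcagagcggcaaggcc
Cdk1: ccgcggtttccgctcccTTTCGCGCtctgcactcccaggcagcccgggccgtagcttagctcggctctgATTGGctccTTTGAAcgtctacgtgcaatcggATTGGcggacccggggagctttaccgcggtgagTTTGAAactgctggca
Cdc20: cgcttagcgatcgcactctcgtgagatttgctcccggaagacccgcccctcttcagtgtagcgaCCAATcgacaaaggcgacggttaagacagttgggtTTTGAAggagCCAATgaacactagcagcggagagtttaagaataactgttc

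The promoters of Aurka and Bub1, of G2 and mitosis, held none of the searched letters. The inhibitor Cdkn1a is printed last, also with none of them in the stretch.
Cdkn1a: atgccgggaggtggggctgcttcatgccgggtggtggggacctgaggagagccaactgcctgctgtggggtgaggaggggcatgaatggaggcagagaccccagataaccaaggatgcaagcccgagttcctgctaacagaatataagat

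Hypoplastic lungs were first set against control lungs. Across the division machinery the levels were close. Of the 45 genes 29 were higher and 16 lower in hypoplastic lungs, with a median log2 fold change of 0.03, beside 0.01 over all 12966 genes tested. Of all genes 6733 were higher and 6233 lower. The 12 replication genes had log2 fold changes of -0.07 to 0.25, the 10 regulators of G1 and S phase -0.25 to 0.16, and the 19 genes of G2 and mitosis -0.21 to 0.26. The exception was Cdkn1a among the inhibitors, whose mean was higher in hypoplastic lungs by 0.91 on the log2 scale.

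None of the 45 passed edgeR's quasi-likelihood test at a Benjamini-Hochberg adjusted p under 0.05, where 0.00771% of all genes tested (1 gene) did. At an unadjusted p under 0.05 there was 1 of the 45, Cdkn1a, against a background of 12.4% of all genes. Library values without overlap between the groups were found for 2 of the 45, Cdkn1a and Cdkn2c, both higher, against 7.67% of all genes in that direction, 9.05% in the other and 16.7% in either. limma voom called none of the 45, beside 1 of all genes. DESeq2 called 1 of the 45, Cdkn1a, beside 212 of all genes. The 95% interval of the fold change lay within a 2-fold change either way for 44 of the 45 genes (97.8%), Cdkn1a being the exception, and for 74.6% of all genes tested.

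Among the replication genes, Mcm2 was at 94.3, 73.2 and 68.5 CPM in control libraries 1, 2 and 3, at 90.9, 67.9 and 71.0 CPM in the hypoplastic and at 93.2, 102 and 67.8 CPM in the treated libraries. Every group held a library near 68 CPM and another above 90, and the groups overlapped throughout. The log2 fold change of Mcm2 (Gene ID 312538) was -0.04 in hypoplastic against control lungs (SE 0.185, 95% interval -0.45 to 0.38, edgeR adjusted p 0.948). Pcna, the sliding clamp of DNA polymerase, was at 73.7 CPM ± 14.8 (SD, n = 3) in control, 76.3 CPM ± 19.7 (SD, n = 3) in hypoplastic and 80.6 CPM ± 17.9 (SD, n = 3) in treated lungs. Its fold change of 0.05 (Gene ID 25737, SE 0.227) was smaller than the spread within any group. Cdt1, the licensing factor that loads the helicase, was at 33.4, 24.6 and 30.5 CPM in control, 35.4, 33.2 and 36.3 CPM in hypoplastic and 35.6, 36.8 and 33.1 CPM in treated lungs. Only control library 1 reached the values of the other groups. Its mean was higher in hypoplastic lungs by 0.25 on the log2 scale (Gene ID 292071, SE 0.125), at an edgeR adjusted p of 0.455.

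Of the G1 and S regulators, cyclin D1 (Ccnd1, Gene ID 58919) was at 159, 149 and 125 CPM in control, 164, 169 and 151 CPM in hypoplastic and 155, 173 and 149 CPM in treated lungs. Control library 3 was the lowest, and the rest overlapped. Ccnd1 lay 0.16 above control in hypoplastic lungs on the log2 scale (SE 0.113, edgeR adjusted p 0.582). E2f1 (Gene ID 399489), the E2F factor itself, was at 39.2, 56.1 and 35.7 CPM in control, 40.6, 31.2 and 38.1 CPM in hypoplastic and 54.7, 45.02 and 37.3 CPM in treated lungs. Control library 2 and treated library 1 stood above the rest, and the log2 fold change of -0.25 (SE 0.199) was not called (edgeR adjusted p 0.630). Rb1 (Gene ID 24708), which restrains E2F, was at 50.1, 51.8 and 42.6 CPM in control, 45.2, 40.3 and 45.3 CPM in hypoplastic and 43.7, 41.5 and 43.0 CPM in treated lungs. Its values spanned little, and hypoplastic lungs lay at -0.14 from control on the log2 scale (SE 0.105, edgeR adjusted p 0.598).

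In G2 and mitosis, Mki67 (Gene ID 291234) was at 254, 309 and 223 CPM in control, 255, 250 and 224 CPM in hypoplastic and 387, 322 and 240 CPM in treated lungs. The hypoplastic libraries lay inside the control range, and the log2 fold change between them was -0.11 (SE 0.178, edgeR adjusted p 0.840). Top2a, the topoisomerase that untangles sister chromatids, was at 452 CPM ± 57.6 (SD, n = 3) in control, 462 CPM ± 103 (SD, n = 3) in hypoplastic and 480 CPM ± 96.5 (SD, n = 3) in treated lungs (Gene ID 360243). Cdk1 (Gene ID 54237) was at 88.7 CPM ± 6.38 (SD, n = 3), 86.3 CPM ± 16.9 (SD, n = 3) and 89.1 CPM ± 12.5 (SD, n = 3) in the same order. For Top2a and Cdk1 the log2 fold changes in hypoplastic lungs were 0.03 (95% interval -0.41 to 0.48) and -0.04 (-0.39 to 0.32). Aurka, the spindle pole kinase, was at 29.9, 26.9 and 30.7 CPM in control, 37.0, 29.3 and 38.6 CPM in hypoplastic and 34.0, 34.6 and 30.7 CPM in treated lungs. It had the smallest p of this role (log2 fold change 0.26, SE 0.127, Gene ID 261730, edgeR adjusted p 0.433), and hypoplastic library 2 lay within the control range. Cenpa (Gene ID 298850), the histone of the centromere, and Foxm1 (Gene ID 58921), the transcription factor of late genes, had log2 fold changes of -0.21 and -0.19, each with overlapping libraries and an edgeR adjusted p of 0.727 and 0.728.

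**Figure D1:**
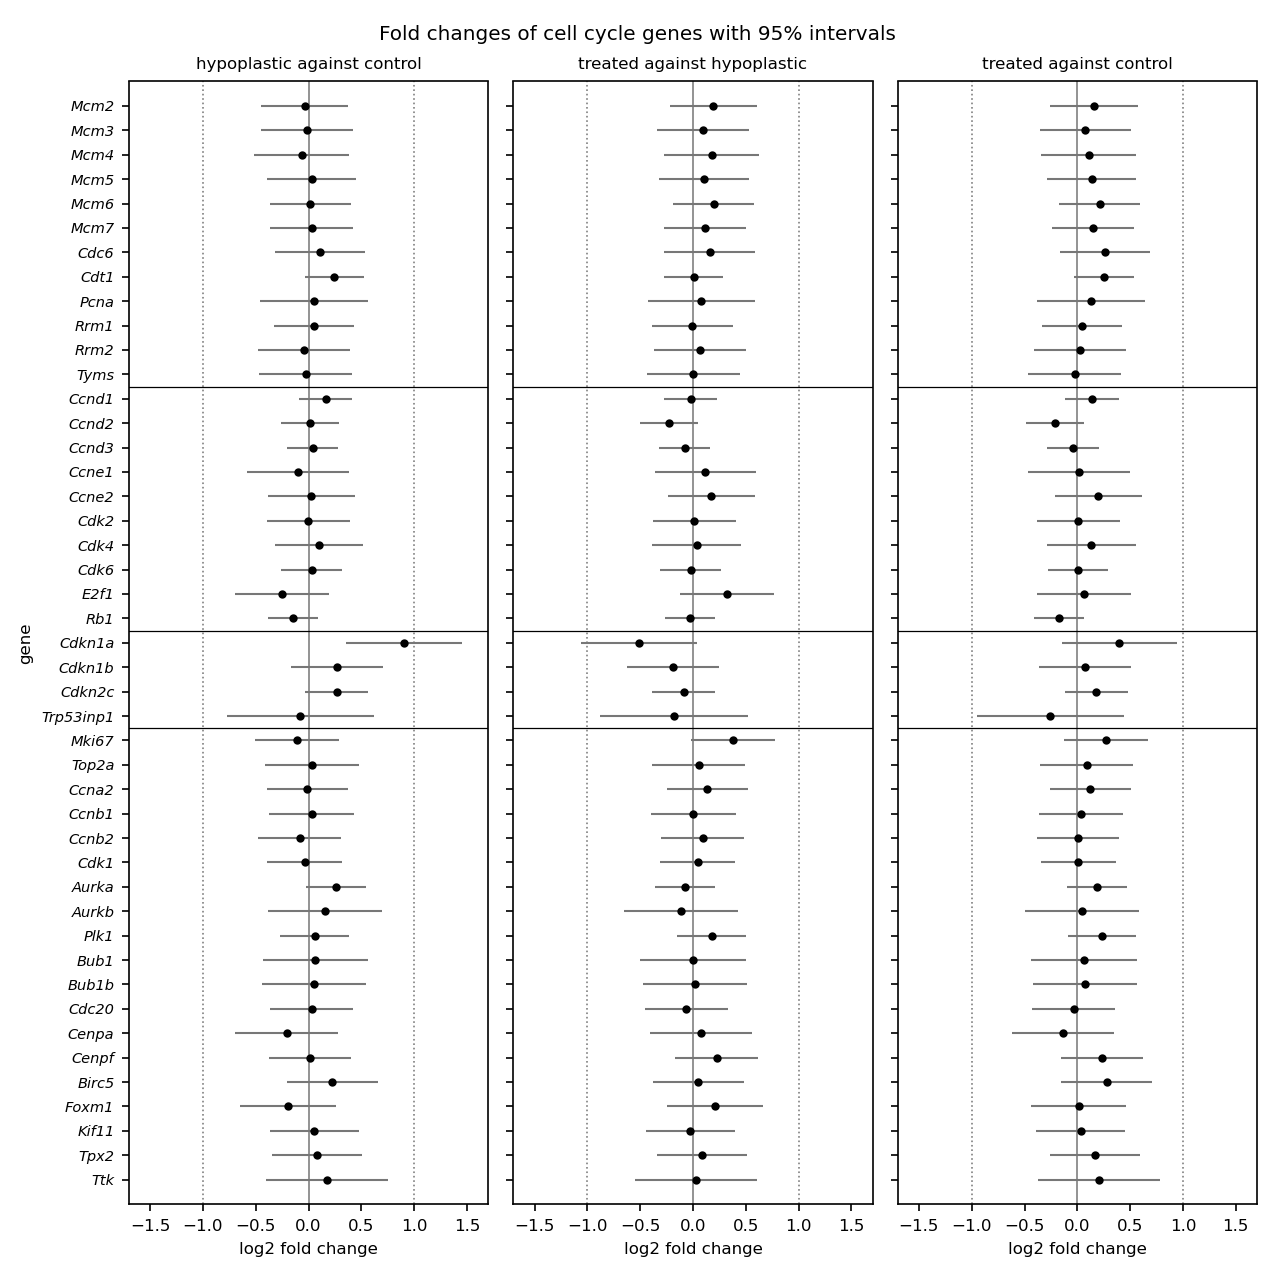
Log2 fold changes (points) of the 45 genes, by role from licensing and replication at the top to G2 and mitosis at the bottom, with 95% intervals (lines) in the 3 comparisons. Dotted lines mark a 2-fold change either way, and in hypoplastic against control lungs the interval of Cdkn1a alone crosses one.

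Cdkn1a encodes the inhibitor of cyclin-dependent kinases p21, a known target of p53. Its level was 53.4, 39.7 and 66.1 CPM in control libraries 1, 2 and 3, 67.1, 115 and 117 CPM in the hypoplastic and 62.8, 62.7 and 83.8 CPM in the treated libraries. Hypoplastic libraries 2 and 3 stood above all others, while hypoplastic library 1 was barely above control library 3, and the treated libraries overlapped both other groups. The log2 fold change in hypoplastic against control lungs was 0.91 (Gene ID 114851, SE 0.245, 95% interval 0.36 to 1.46), with an unadjusted p of 0.00440 and an edgeR adjusted p of 0.317. Over the alternatives its adjusted p ran from 0.0333, by DESeq2, to 0.762, by edgeR without control library 2. The fold change ran from 0.74 without that library to 1.12 without hypoplastic library 1.

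The other inhibitors differed less. Cdkn2c, which binds Cdk4 and Cdk6, was at 7.997, 9.97 and 8.52 CPM in control, 10.6, 10.4 and 10.9 CPM in hypoplastic and 9.99, 9.77 and 10.2 CPM in treated lungs. The hypoplastic libraries lay just above all others, at a log2 fold change of 0.27 from control (Gene ID 54238, SE 0.133, edgeR adjusted p 0.440). Cdkn1b, the inhibitor p27 of cyclin E and Cdk2, was at 152, 107 and 187 CPM in control, 191, 169 and 178 CPM in hypoplastic and 128, 161 and 181 CPM in treated lungs, with wide overlap. Trp53inp1 (Gene ID 297822), a stress gene of the p53 pathway matched through a synonym, was at 14.3, 14.9 and 22.3 CPM in control and 10.95, 15.3 and 22.6 CPM in hypoplastic lungs, and its libraries spread alike in both groups.

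**Figure D2:**
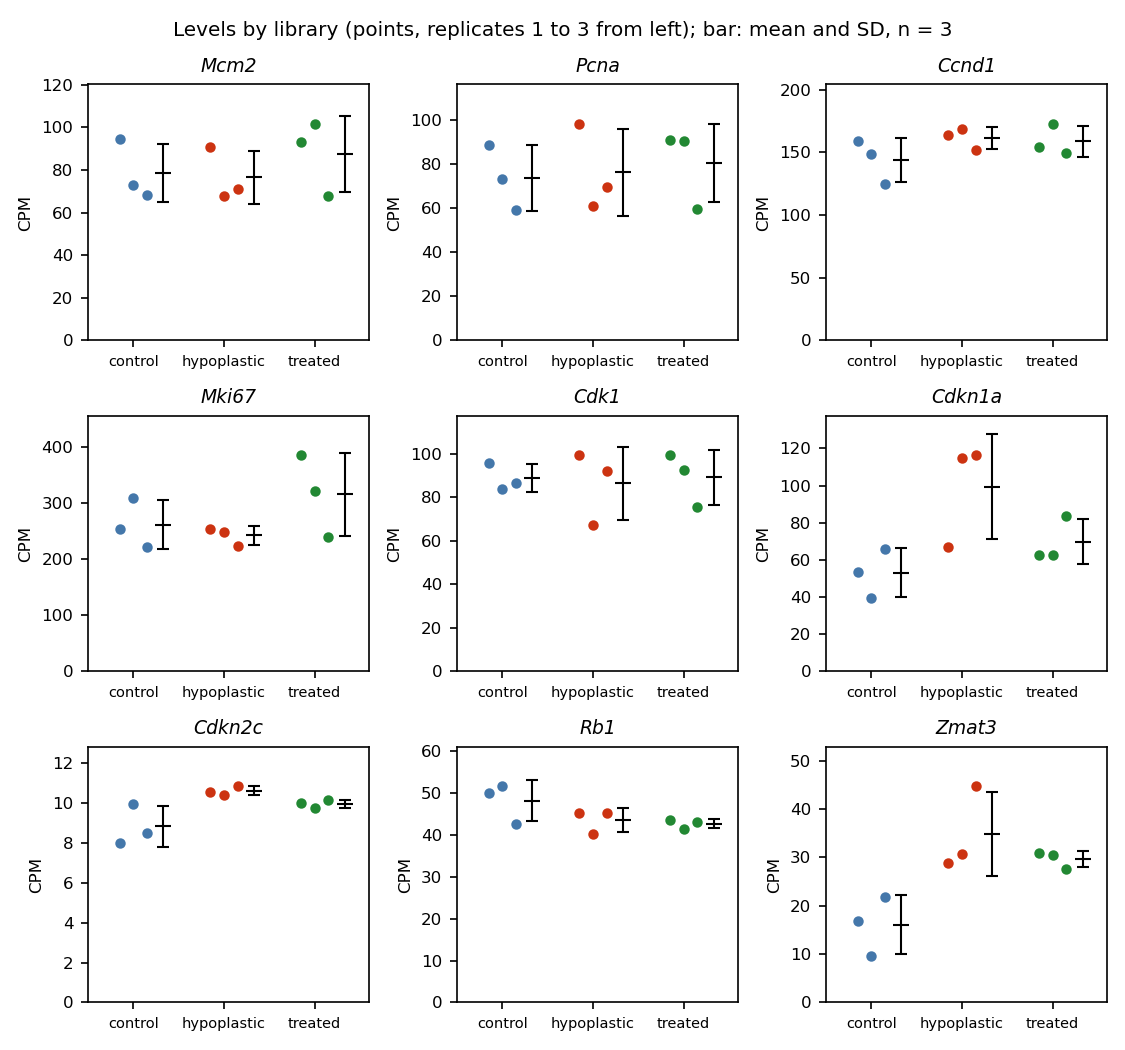
CPM (y axis, from 0) of 8 of the genes and of Zmat3 in each library, with the mean and SD of each group (n = 3) to the right of its points. Cdkn1a and Zmat3 were higher in every hypoplastic than in every control library, and Mcm2, Pcna, Mki67 and Cdk1 overlapped.

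A wider list of cell cycle genes, taken from textbook knowledge, held 134 genes of which 120 were tested. edgeR called none in hypoplastic against control lungs, the median log2 fold change was 0.04, and 70 were higher and 50 lower. At an unadjusted p under 0.05 there were 6 higher (background 6.67%) and 2 lower (background 5.69%). In the 37 further replication genes there was none of these, in the 19 further G1 and S regulators 1 higher and 1 lower, in the 50 further genes of G2 and mitosis 1 higher, and in the 14 further inhibitors and p53 targets 4 higher and 1 lower.

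The p53 target Zmat3, which encodes an RNA-binding zinc finger protein, was at 16.8, 9.58 and 21.8 CPM in control, 28.9, 30.7 and 44.8 CPM in hypoplastic and 30.9, 30.4 and 27.7 CPM in treated lungs. All 6 libraries of hypoplastic lungs, treated or not, were above the 3 controls. The log2 fold change in untreated hypoplastic lungs was 1.11 (Gene ID 64394, SE 0.273). The adjusted p was 0.317 in edgeR and 0.0124 in DESeq2, and up to 0.762 without control library 2. Gadd45a, a stress gene that p53 also induces, had 18.02, 13.8 and 23.8 CPM in control and 27.5, 24.8 and 24.99 CPM in hypoplastic lungs, without overlap (Gene ID 25112, log2 fold change 0.47, SE 0.181, edgeR adjusted p 0.366). Mdm2, the ubiquitin ligase of p53, and Plk3, a polo-like kinase, were named after their values were seen: both had higher means in hypoplastic lungs, by 0.40 and 0.70 on the log2 scale, with unadjusted p of 0.0322 and 0.0390. The mean of Plk3 rested on hypoplastic library 2 at 15.5 CPM, the other hypoplastic libraries being at 6.56 and 7.96 and the controls at 5.69 to 6.37 CPM. Apart from Cdkn2b, the other tested inhibitors and p53 targets had an unadjusted p above 0.05. Their log2 fold changes were 0.49 for Phlda3 (unadjusted p 0.0736), 0.31 for Ccng1, 0.17 for Bax, 0.16 for Plk2, 0.13 for Cdkn1c, 0.13 for Cdkn2d, 0.07 for Btg2, -0.02 for Sesn2 and -0.14 for Sesn1.

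In the opposite direction, Cdkn2b, an inhibitor of Cdk4 and Cdk6 that TGF-beta is known to induce, was at 36.2, 81.6 and 45.8 CPM in control, 22.7, 32.0 and 23.7 CPM in hypoplastic and 43.9, 27.2 and 27.2 CPM in treated lungs. The hypoplastic libraries were below all controls, and control library 2 was far above the rest. The log2 fold change was -1.06 (Gene ID 25164, SE 0.308), at adjusted p of 0.317 in edgeR and 0.0404 in DESeq2. Without control library 2 it was -0.65, with an edgeR adjusted p of 0.762. Rbl2, a relative of Rb1 in the DREAM complex, had 34.8, 47.4 and 40.9 CPM in control and 27.7, 33.8 and 32.3 CPM in hypoplastic lungs, without overlap (Gene ID 81758, log2 fold change -0.39, edgeR adjusted p 0.341).

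The lungs given vesicles were next set against untreated hypoplastic lungs. Levels were again close: 30 of the 45 genes were higher and 15 lower in treated lungs, with a median log2 fold change of 0.05, beside -0.01 over all genes tested. Of all genes 6236 were higher and 6730 lower. Of the 12 replication genes 11 were higher, by at most 0.19, and of the 19 genes of G2 and mitosis 14 were higher, by at most 0.38 for Mki67. All 4 inhibitors had lower means, by 0.09 to 0.51 on the log2 scale, Cdkn1a the most. The hypoplastic libraries were those of the first comparison, so the directions in these comparisons are not independent.

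edgeR called none of the 45 here, beside 0% of all genes tested, and DESeq2 and limma voom called none. None had an unadjusted p under 0.05 by edgeR (background 5.56%, with 3.56% lower), and 1 had by DESeq2, beside 819 of all genes. Libraries without overlap were found for Ccnd2 and Cdkn2c, both lower in treated lungs, where 4.74% of all genes lay lower, 5.07% higher and 9.82% either way without overlap. The interval lay within a 2-fold change for 44 of the 45, Cdkn1a again being the exception, and for 77.4% of all genes.

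Mki67 had the largest fold change upwards, 0.38 on the log2 scale (SE 0.178, 95% interval -0.02 to 0.78, unadjusted p 0.0598, edgeR adjusted p 0.901). Its values, given above, show treated libraries 1 and 2 above all hypoplastic libraries and treated library 3 among them. Leaving out treated library 1 gave 0.21, and leaving out treated library 3 gave 0.55. E2f1 followed at 0.32 (SE 0.199, edgeR adjusted p 0.921). Cenpf, a kinetochore protein (Gene ID 257649), was at 122, 108 and 108 CPM in hypoplastic and 134, 152 and 108 CPM in treated lungs, which is 0.22 higher on the log2 scale. Plk1, the polo-like kinase of mitotic entry (Gene ID 25515), was at 52.2, 39.7 and 44.1 CPM in hypoplastic and 54.7, 55.2 and 43.7 CPM in treated lungs, 0.18 higher on that scale. In both genes treated library 3 was the one that stayed among the hypoplastic values.

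Cdkn1a had a log2 fold change of -0.51 in treated against hypoplastic lungs (SE 0.243, 95% interval -1.06 to 0.03, edgeR adjusted p 0.901). Only hypoplastic library 1 lay within the treated range. Leaving out hypoplastic library 3 gave -0.38, and leaving out hypoplastic library 1 gave -0.73. Ccnd2 (Gene ID 64033), a D-type cyclin, was at 83.2, 102 and 80.7 CPM in control, 91.3, 89.9 and 87.1 CPM in hypoplastic and 81.4, 82.1 and 65.7 CPM in treated lungs, which put all treated below all hypoplastic libraries (log2 fold change -0.23, SE 0.123, edgeR adjusted p 0.907). It was -0.13 without treated library 3. Cdkn1b was lower by 0.19 and Ccnd3 (Gene ID 25193), another D-type cyclin, by 0.08 on the log2 scale, each with overlap of the libraries. Mcm2, Pcna, Top2a, Cdk1, Ccnd1 and Rb1 had log2 fold changes of 0.19, 0.08, 0.05, 0.05, -0.02 and -0.03, all with edgeR adjusted p of 0.942 or higher.

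Of the 120 further cell cycle genes edgeR called none and none had an unadjusted p under 0.05. Libraries without overlap were found for 2 of them, both lower, where 4.74% of all genes lay lower and 5.07% higher. The pair of smallest p in each direction were, among the higher, Ccnf, the cyclin of a ubiquitin ligase (Gene ID 117524, log2 fold change 0.31), and Mybl2, a late cell cycle activator (Gene ID 296344, 0.35), and, among the lower, Orc4, a subunit of the origin recognition complex (Gene ID 295596, -0.28), and Cdkn1c, an imprinted inhibitor (Gene ID 246060, -0.38). All 4 had edgeR adjusted p of 0.901 to 0.913. Ccnf was at 50.7, 39.1 and 47.6 CPM in hypoplastic and 66.2, 54.6 and 49.6 CPM in treated lungs, and only treated library 3 reached down into the hypoplastic range. Orc4 was at 22.03, 21.4 and 27.9 CPM in hypoplastic and 18.9, 18.8 and 21.2 CPM in treated lungs, without overlap. The largest differences of the list, named after their values were seen, were -0.58 for Plk3 (SE 0.293, unadjusted p 0.0771, edgeR adjusted p 0.901) and 0.40 for Mycn (unadjusted p 0.139). That of Plk3 rested again on hypoplastic library 2, since the treated libraries were at 6.07 to 7.91 CPM. Of the 14 further inhibitors and p53 targets 12 had lower means in treated lungs, with a median log2 fold change of -0.19, and none of them was called.

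Treated lungs were last set against control lungs. Of the 45 genes 38 were higher and 7 lower in treated lungs, at a median log2 fold change of 0.08, beside 0.00 over all genes tested (0.0028). Of all genes 6566 were higher and 6400 lower. Of the replication genes 11 of 12 and of the G2 and mitosis genes 17 of 19 were higher, by at most 0.26 and 0.28. This comparison shares its libraries with the other comparisons and adds no independent direction. edgeR, DESeq2 and limma voom called none, and none had an unadjusted p under 0.05 (background 4.17% by edgeR). The interval lay within a 2-fold change for all 45.

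The smallest p-values belonged to Cdt1 (log2 fold change 0.25, SE 0.125), Cdkn1a (0.39, SE 0.244), Plk1 (0.23, SE 0.145) and Mki67 (0.27, SE 0.178) among the higher genes, and to Ccnd2 (-0.22), Rb1 (-0.17), Trp53inp1 (-0.26) and Cenpa (-0.13) among the lower. edgeR adjusted p was 0.998 for each of these 8. Mcm2, Top2a, Pcna, Ccnd1 and Cdk1 lay at 0.16, 0.09, 0.13, 0.14 and 0.01 on the log2 scale. Libraries without overlap were found for 1 gene, Aurka, higher in treated lungs by 0.18, where 4.37% of all genes lay higher, 5.02% lower and 9.39% either way without overlap. Its lowest treated and highest control values were 30.67 and 30.65 CPM, so the gap was negligible.

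Among the 120 further genes 2 had an unadjusted p under 0.05 upwards (background 1.67%) and 1 downwards (background 2.50%), and edgeR called none. Libraries without overlap were found for 5 of the 120, all higher, where 4.37% of all genes lay higher and 5.02% lower. The mean of Zmat3 in treated lungs exceeded that in control lungs by 0.88 on the log2 scale (SE 0.272, edgeR adjusted p 0.998), without overlap, and by 0.62 without control library 2. E2f3 (Gene ID 291105), an activating E2F factor, was at 9.21, 7.79 and 8.87 CPM in control and 11.2, 11.1 and 10.2 CPM in treated lungs, without overlap and 0.33 higher on the log2 scale. Cdkn2b stood at -0.73, and at -0.32 without control library 2. Rbl2 stood at -0.23, with treated libraries inside the control range for treated library 3 only.

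Most of the variation in the 45 genes lay between libraries of the same group. The highest CPM of a gene exceeded its lowest over the 9 libraries by 1.26-fold (Ccnd3) to 2.94-fold (Cdkn1a), with a median of 1.59-fold. The groups accounted for a median of 8.31% of the variance of log2 CPM in the 45 genes and 23.4% in all genes tested. By role the median share was 4.98% for G2 and mitosis, 6.58% for licensing and replication and 10.9% for G1 and S regulators. For the 4 inhibitors it was 41.5%, between values that lay far apart. These were 66.9% for Cdkn2c, 60% for Cdkn1a, 22.9% for Cdkn1b and 8.59% for Trp53inp1. Of the replication genes Cdt1 was at 52%. The SD within groups was 0.256 on the log2 scale at the median of the 45 genes and 0.225 at that of all genes.

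Replication and mitosis genes went up and down in the same libraries. Of the 41 genes other than inhibitors, 36 were above their own mean in hypoplastic library 1, 37 in treated library 1, 38 in treated library 2 and 32 in control library 1, but 5 in hypoplastic library 2, 3 in control library 3 and 1 in treated library 3. Hypoplastic library 2 was the lowest of all libraries for 18 of the 41 (43.9%) and treated library 3 for 12 (29.3%), where 15% and 11.8% of all genes tested had their lowest value there. The highest value was in treated library 2 for 14 genes, hypoplastic library 1 for 12 and treated library 1 for 9, against 7.71%, 14.6% and 9.09% of all genes. Each group thus held a library high and a library low in these genes. The 19 genes of G2 and mitosis deviated from their means by 0.25 in hypoplastic library 1 and -0.33 in hypoplastic library 2, averaged on the log2 scale, and by 0.26 and -0.27 in treated libraries 2 and 3. The 12 replication genes deviated by 0.24, -0.24, 0.25 and -0.26 in the same libraries. Further genes of replication and of G2 and mitosis gave the same order, with 0.25 and -0.34 for 50 of G2 and mitosis in hypoplastic libraries 1 and 2. The 10 regulators of G1 and S phase deviated less there, by 0.05 and -0.11, and 19 further ones by -0.02 and -0.05. In treated libraries 2 and 3 these regulators were at 0.11 and -0.19, and the further ones at 0.14 and -0.08.

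**Figure D3:**
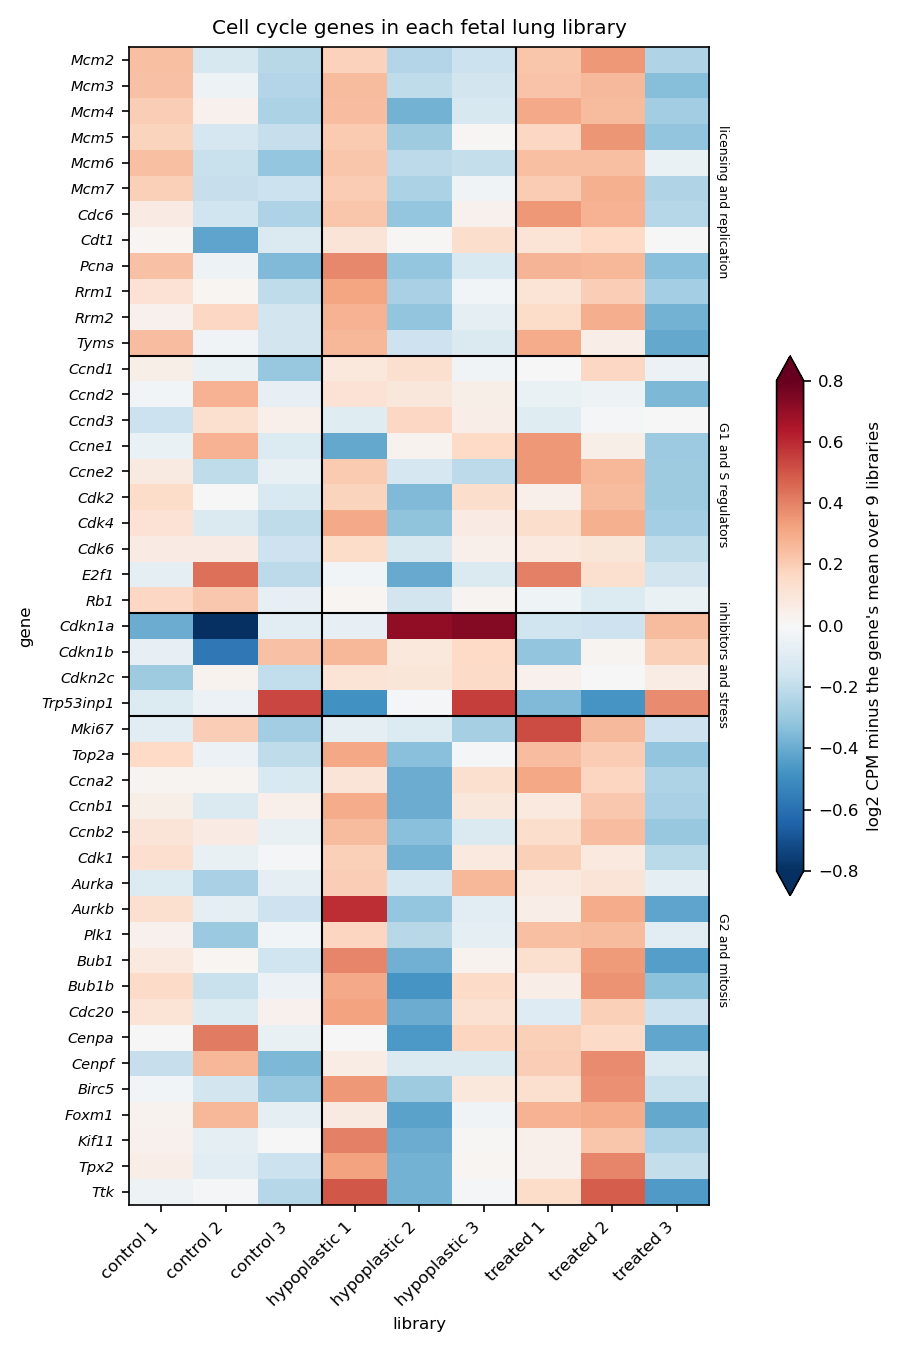
Log2 CPM of each of the 45 genes (rows, by role) in each library (columns), as the deviation from the gene's mean over 9 libraries, red above and blue below, with the colour saturated beyond 0.8. Hypoplastic library 2 and treated library 3 are blue and hypoplastic library 1 and treated libraries 1 and 2 are red for most replication and mitosis genes. The inhibitors and the D-type cyclins differ.

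Single genes showed this plainly. Ttk, a kinase of the spindle checkpoint, was at 39.7, 40.5 and 34.8 CPM in control, 57.7, 31.4 and 40.5 CPM in hypoplastic and 45.1, 57.2 and 29.8 CPM in treated lungs. Aurkb, the kinase of the chromosomal passenger complex, was at 146, 78.3 and 91.8 CPM in the hypoplastic libraries, and Kif11, a spindle motor, at 218, 125 and 166 CPM. Rrm2, the small subunit of ribonucleotide reductase, was at 211, 140 and 165 CPM there. In all 4 genes hypoplastic library 1 was the highest and library 2 the lowest of its group. Not every gene followed: Ccne1, cyclin E, was lowest of all in hypoplastic library 1 (6.92 CPM), and Mki67 was as high in hypoplastic library 2 (250 CPM) as in library 1 (255 CPM). The D-type cyclins Ccnd1, Ccnd2 and Ccnd3 were above their own means in hypoplastic library 2, by 0.13, 0.09 and 0.16 on the log2 scale.

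The inhibitors did not share this order either. Averaged over the 4 genes they deviated by -0.21, -0.35 and 0.12 on the log2 scale in control, -0.04, 0.22 and 0.40 in hypoplastic and -0.20, -0.15 and 0.22 in treated libraries 1, 2 and 3. Their average was thus above 0 in hypoplastic library 2, control library 3 and treated library 3, where that of the replication genes was below 0. All 4 inhibitors lay above their own means in treated library 3 and in hypoplastic library 3. In control library 3 Cdkn1a and Cdkn2c lay below theirs (-0.09 and -0.20). In hypoplastic library 2 Cdkn1a (0.71) carried most of the average, and Trp53inp1 was at -0.01. The 14 further inhibitors and p53 targets deviated by 0.23, 0.08 and 0.06 in hypoplastic library 2, control library 3 and treated library 3, and by -0.25 in control library 2.

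Marker levels of some other cell types differed along part of the same libraries. Erythroid sums were low in hypoplastic library 2, control library 3 and treated library 3, while macrophage and mesenchymal sums were high in only some of these. The macrophage sum of control library 3 (101 CPM) and the mesenchymal sum of treated library 3 (2960 CPM) were not raised. Erythroid markers, 8 genes with Alas2 and Slc4a1 the most abundant, summed to 1030 CPM in hypoplastic library 2, 1140 CPM in control library 3 and 1290 CPM in treated library 3, and to 1590 to 3410 CPM in the other 6. Macrophage markers, 7 genes with Marco at 0 in all but one library, summed to 234 CPM in hypoplastic library 2 and 195 CPM in treated library 3 and to 26.9 to 131 CPM in the others. Mesenchymal markers, 7 genes with Col1a1 the most abundant, summed to 9580 CPM in hypoplastic library 2 and to 1230 to 3560 CPM in the others. Most of the 9580 CPM was Col1a1 (5820 CPM) and Col1a2 (3230 CPM). Pdgfra and Wnt5a were also highest in that library, at 333 and 77.5 CPM. Tbx4 and Tbx5 were not (91.2 and 25.3 CPM), and Fgf10 was lowest there (4.62 CPM). The part of these cell types in the levels of the cell cycle genes was not tested. In whole lung a smaller number of dividing cells and less transcript per dividing cell cannot be told apart. Control library 2, with the lowest Cdkn1a and Zmat3, also had the lowest macrophage and mesenchymal sums (26.9 and 1230 CPM) and the highest erythroid and epithelial sums (3410 and 5660 CPM). The epithelial sum was lower in every hypoplastic than in every control library, the reverse of Cdkn1a and Zmat3. The part of these cells in the differences of Cdkn1a and Zmat3 was not tested.

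**Figure D4:**
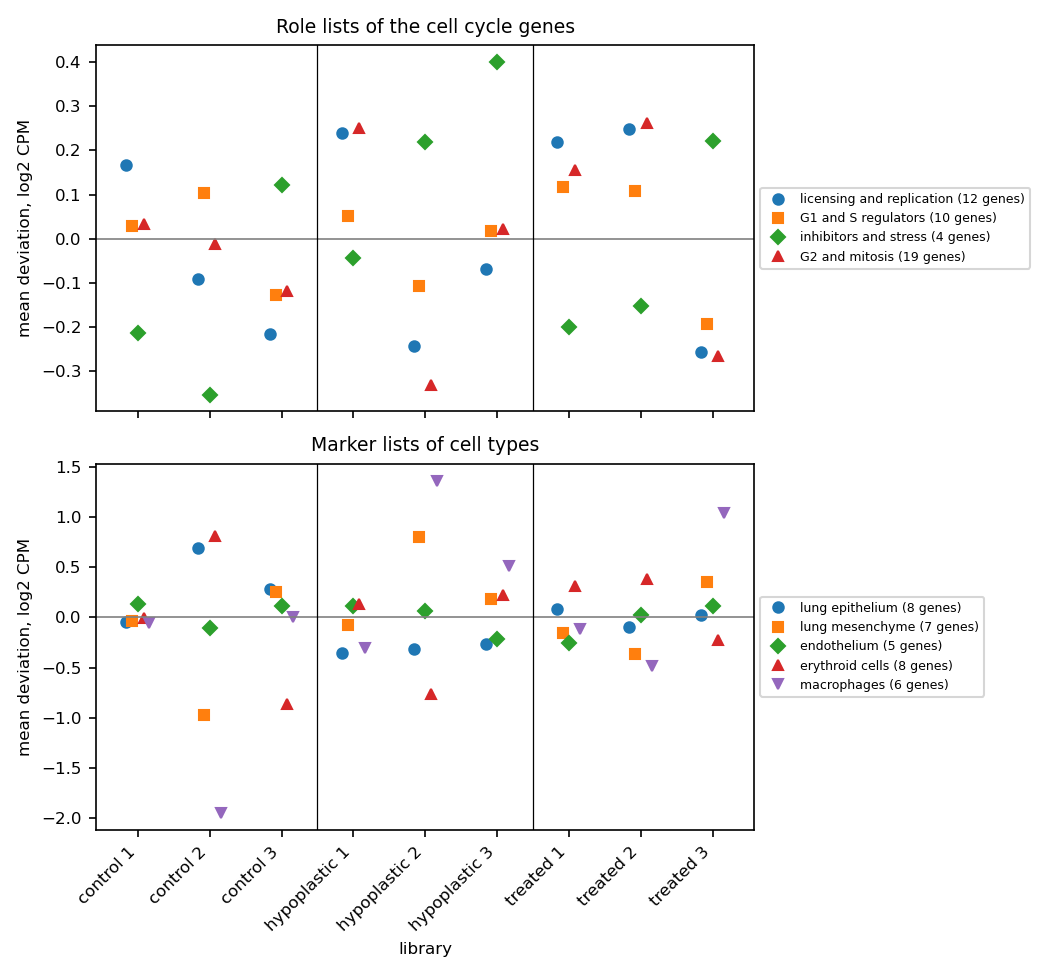
Mean deviation of log2 CPM from each gene's mean over 9 libraries (y axis), by library, for the 4 role lists (top) and 5 marker lists (bottom). Replication and G2 and mitosis genes lie low in hypoplastic library 2 (-0.24 and -0.33) and treated library 3 (-0.26 and -0.27), where macrophage markers lie high (1.36 and 1.04).

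Because of this spread, the direction of the whole set turned on which library was left out. In hypoplastic against control lungs 10 of the 45 genes were higher without hypoplastic library 1 (median log2 fold change -0.11) and 37 without hypoplastic library 2 (0.14). In treated against hypoplastic lungs 14 were higher without hypoplastic library 2 (median -0.08) and also 14 without treated library 2 (-0.03), but 35 without hypoplastic library 1 (0.20) and 37 without treated library 3 (0.19). In treated against control lungs the count ran from 22 without treated library 2 (median 0.00, at -0.00374) to 40 without treated library 3 (0.23). With sex as a covariate 20 of the 45 were higher in hypoplastic against control lungs, at a median of 0.00 (-0.00472). The difference of Cdkn1a between hypoplastic and control lungs was 0.92 on the log2 scale with that covariate (edgeR adjusted p 0.584).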

How the data were processed

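Gene expression was measured in 9 rat lung libraries of 3 groups, taken from the titles in the labels. The authors deposited 1 table of estimated counts for 17465 genes, in which 19.5% of the nonzero values are whole. Per the submitters' processing notes, build rn7 and DESeq2 were used, with no role given. For the aligner, annotation and counting the sources used here name nothing, so near-identical genes are uncertain. RefSeq symbols (GRCr8, names only) matched 99.1% of the Gene IDs. The estimated counts were rounded and tested with edgeR 4.0.16 (R 4.3.3, quasi-likelihood, TMM, filterByExpr, which kept 12966 genes) in 1 fit over all 9 libraries with a term per group and 6 residual degrees of freedom. P-values were adjusted by Benjamini-Hochberg over all genes tested, and a gene was called under 0.05. CPM uses TMM-scaled library totals. Deviations use log2 CPM with a prior count of 2. Standard errors (change over the square root of F) and the 95% intervals built on them are approximate. Ribosomal and 7SL RNA held 14.1% to 19.9% of the counts.

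In each comparison the 4 genes of smallest p in each direction were named, with Mki67, Top2a, Pcna, Mcm2, Ccnd1, Cdk1, Cdkn1a and Rb1 whatever their values, and 2 further cell cycle genes in each direction. The genes that show the library pattern and the promoters printed were chosen after the values or matches were seen. The members and lists were chosen with earlier results of these data known. The alternatives were DESeq2 1.42.0, limma voom 3.58.1, other size factors and filters, fewer libraries, a replicate block, sex, removal of ribosomal and 7SL rows, and leaving out each library. The fit was tested on simulated data.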

Additional observations from a re-analysis of the deposited data

How the results depend on the processing

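With 1 of the 6 libraries compared left out, the number of all genes called by edgeR ran from 0 to 45 in hypoplastic against control, 0 to 44 in treated against hypoplastic and 0 to 1 in treated against control lungs, and none of the 45 was called in any of these. DESeq2 called 212, 15 and 16 genes, and of the 45 only Cdkn1a (1 gene), in hypoplastic against control. With only the 6 libraries compared edgeR called 4 genes, and with the replicate block 2, in hypoplastic against control. No label says that replicate numbers mark a pairing, and deviations of same-numbered libraries correlated at -0.282 to 0.227, above 0.1 in 3 of 9 pairs. Differently numbered libraries of different groups correlated at -0.439 to 0.389, above 0.1 in 7 of 18 pairs. The replicate block changed no call among the 45 genes. Changes near 0 reversed: with the sex covariate Top2a was at -0.00472 and Pcna at -0.00105 in hypoplastic against control, and Cdk1 at -0.011 in treated against control, where limma voom gave -0.000899. With 1 library left out, the hypoplastic against control log2 fold change spanned -0.154 to 0.112 for Cdk1, -0.18 to 0.119 for Mcm2, -0.213 to 0.0272 for Mki67, -0.178 to 0.21 for Pcna and -0.145 to 0.18 for Top2a. For treated against hypoplastic lungs it spanned -0.0865 to 0.0221 for Ccnd1, -0.105 to 0.161 for Cdk1, -0.0593 to 0.307 for Pcna, -0.0829 to 0.000271 for Rb1 and -0.0918 to 0.233 for Top2a. For treated against control lungs it spanned -0.0804 to 0.115 for Cdk1, -0.238 to 0.0365 for Cenpa, -0.00745 to 0.303 for Pcna and -0.0111 to 0.247 for Top2a. The cause was not tested. The SE of a log2 fold change was 0.187 at the median of the 45 genes, and a missing call does not show that levels were equal. Protein, phosphorylation and the number of dividing cells were not measured.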
